A study of Sus scrofa with 80 samples.

Results

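The antigen presentation and interferon response genes were examined in 5 tissues of 16 pigs. They were taken by their symbols in the annotation of the array: symbols that start with SLA-, IFI, MX1, MX2, OAS, ISG, IRF, STAT or GBP (the last 3 followed by a number), and B2M, CD74, TAP1, TAP2, TAPBP, PSMB8 and PSMB9. Of the 6765 genes with a single symbol, 45 met the rule, with 77 probesets, and no gene was found under TAP2 or PSMB9. The probeset with the highest mean over the 80 arrays stands for each gene. By their roles, 9 genes belong to MHC class I and its peptide loading, 9 to MHC class II, 14 to the interferon-induced effectors and 13 to the transcription factors. All signals are on the log2 scale, so that a difference of 1 is a doubling.

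The hypothalamus (with mamillary body and grey tubercle, without optic chiasm), the adenohypophysis (separated from the neurohypophysis), the thyroid gland, the gonads and backfat were sampled from each pig, with 1 array for each pig and tissue. The pigs were 4 Large White (LW, mean age 87 days), 4 Duroc (DU, 83 days), 4 Youli (YL, 80 days) and 4 Iberian (IB, 89 days). Youli pigs come from a cross of Landrace with a Chinese-European hybrid line. Large White, Duroc and Iberian pigs were 2 males and 2 females each and Youli pigs 3 males and 1 female, which gave 9 testes and 7 ovaries. All were untreated, under 1 housing and diet, and were fasted before slaughter. Animals are named by breed, sex (M or F) and number.

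MHC class I molecules sit on nearly all nucleated cells and show peptides cut by the proteasome and carried into the endoplasmic reticulum by the TAP transporter. MHC class II molecules are made mainly by dendritic cells, macrophages and B cells, where the invariant chain CD74 and the DM proteins control their loading with peptides from engulfed protein. Interferons bind receptors that act through JAK kinases and STAT proteins, and the induced genes include antiviral effectors such as MX and OAS proteins and, after interferon gamma, much of the antigen presentation machinery. In the pig the MHC genes carry the prefix SLA.

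Some arrays stood apart or went against their label. The array labelled as the ovary of IBF25 had a mean of 2.57 over 9 ovarian markers, against 7.21 to 8.76 in the other 6 ovaries, and ZP3, of the egg coat, was at 2.22 against 8.37 to 11.14. Its markers of the testis, at a mean of 2.07, and of the other tissues were low as well. It was above all other ovaries in 20 of the 45 genes and below them in 4, against 44.3% and 18.6% of all probesets, so that the ovary differences and the differences between testes and ovaries are given with and without it. The ranges of ovaries and the averages over the tissues of IBF25 include it. The non-gonadal arrays of IBF22, IBM23, LWF05 and LWM04 also formed a set apart, with an actin 3′ minus 5′ difference of 2.32 to 3.19 (median 2.94) against 1.40 to 2.68 (median 1.95) in the other 48 arrays of these tissues, and results between breeds or animals are given without these 4 pigs where that changes a call. Markers of the labelled tissue were present in all other arrays, but the thyroid array of YLM20 also had a mean of 8.0 over 9 adenohypophyseal markers (median of thyroid arrays 2.32). The mean of these 9 was 5.53 in the thyroid array of YLM19. In the hypothalamus it was 5.73 in YLM19 and 4.56 in DUF13 (median of hypothalamus arrays 2.38). The hypothalamus array of IBM23 stood apart in the immune genes themselves and is described last. Among all probesets, 17.8% had a mean under 2.5, which is near background. Of the 45 genes, ISG20 and SLA-DOA had such a mean, and STAT4 was at that level outside the gonads.

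Nearly all of the genes differed between the 6 tissue classes, with testis and ovary apart. By the F-test of limma 43 of 45 were called at an adjusted p under 0.05, beside 94.2% of all probesets; ISG20 and IRF7 were not called. The signal was highest in backfat for 22 of the genes and in the thyroid gland for 13, and lowest in the hypothalamus for 20 and in testes for 12. Each class was then set against the mean of the other 5 class means, and the differences below are of this kind. In such tissue samples fewer cells of a type and less RNA per cell cannot be told apart.

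**Figure D1:**
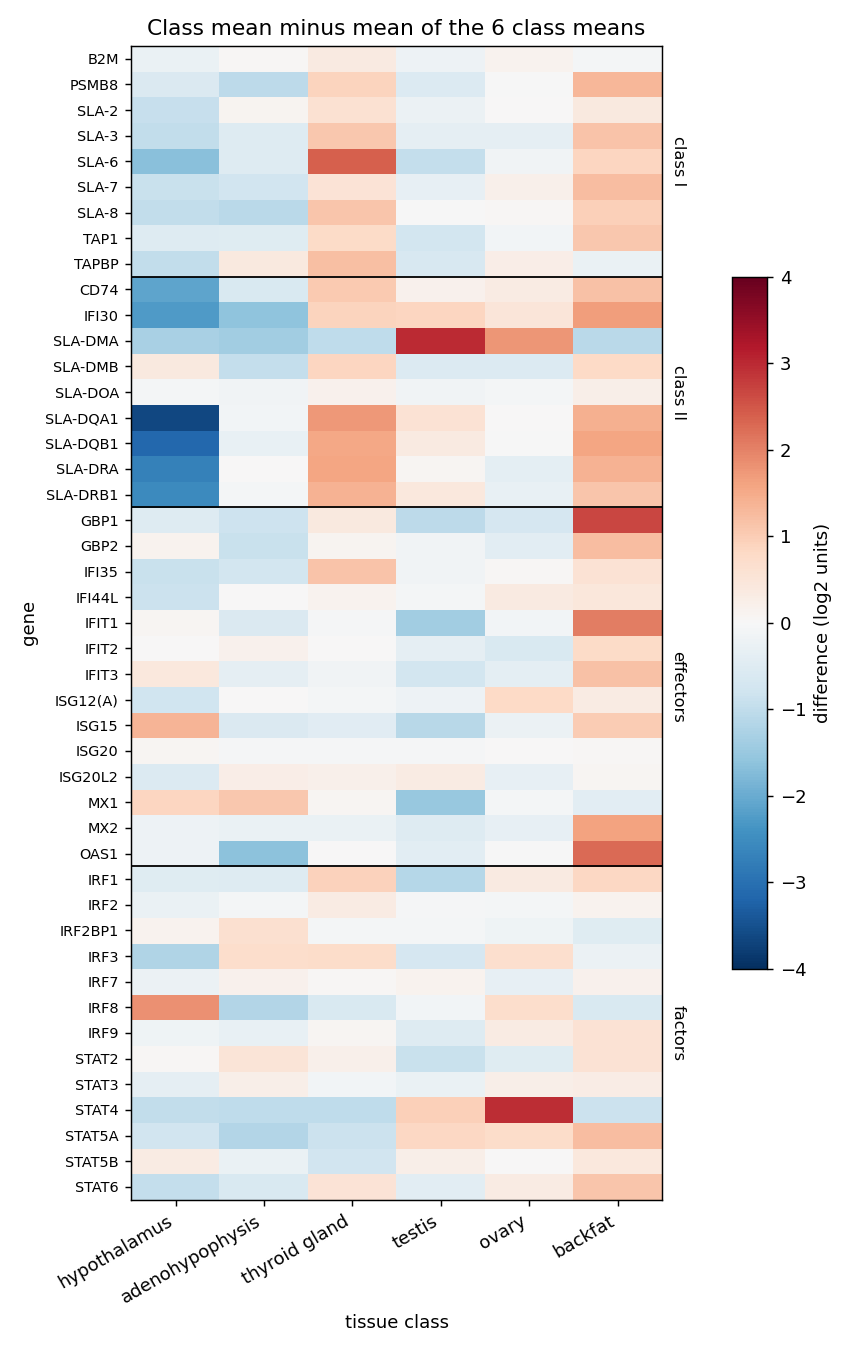
Mean log2 signal of each of the 45 genes (lines, by group) in each of the 6 tissue classes (columns) minus the mean of its 6 class means. Red is above and blue below that mean; 6 of the 9 MHC class II genes are lowest in the hypothalamus, and the columns of backfat and the thyroid gland are mostly red in class I and class II.

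MHC class I and its loading genes were mostly lower in the hypothalamus and higher in the thyroid gland and backfat than in the other classes. In the hypothalamus all 9 genes were lower, with a median difference of −1.10 (all probesets −0.03; 37.2% of probesets were called lower), and in the thyroid gland all 9 were higher, with a median of 1.08 (all probesets −0.01; 26.6% called higher). In backfat 7 were higher and 1 lower, with a median of 1.13 (all probesets 0.03; 42.5% called higher and 32.6% lower). The lower gene was TAPBP, the chaperone tapasin that holds class I at the TAP transporter, and B2M, the light chain of class I, was not called there.

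SLA-6, a non-classical class I gene, had the largest difference in the thyroid gland. Its signal was 9.41 to 10.46 (median 10.02) in thyroid arrays, against 7.44 to 9.11 (median 8.53) in backfat, 5.03 to 8.91 (median 6.94) in the adenohypophysis, 6.19 to 8.58 (median 7.43) in ovaries, 5.27 to 7.50 (median 6.83) in testes and 4.7 to 8.08 (median 5.99) in the hypothalamus. Every thyroid array was therefore above every other array, and the difference was 2.88 (SE 0.21, adjusted p = 3.2e-20). The classical class I genes SLA-2 and SLA-3 were also higher in the thyroid gland, by 0.72 (SE 0.14) and 1.28 (SE 0.17). TAP1, a subunit of the peptide transporter, and PSMB8, a subunit of the immunoproteasome, were highest in backfat, at means of 8.02 ± 0.55 and 7.44 ± 0.59 (SD, n = 16). Both were lower in the hypothalamus, by a difference of −0.63 (SE 0.18) for TAP1 and −0.69 (SE 0.19) for PSMB8. TAPBP was highest in the thyroid gland, at 8.40 ± 0.29, and lowest in the hypothalamus, at 6.20 ± 0.51 (SD, n = 16). For B2M the annotation names 9 probesets, and the correlation of the other 8 with the one used ran from −0.35 to 0.39 over the 80 arrays, so that B2M is uncertain. SLA class I genes resemble each other closely, and signal may be shared between their probesets.

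The MHC class II genes differed widely between tissues. In the hypothalamus 7 of 9 were lower and 1 higher, with a median difference of −2.72. Of all probesets, 37.2% were called lower and 24.8% higher there. In the thyroid gland 8 class II genes were higher and 1 lower, with a median of 1.24 (26.6% of all probesets were called higher and 27.5% lower). In backfat likewise 8 were higher and 1 lower, with a median of 1.39 (42.5% and 32.6% of all probesets). The gene that was lower in both was SLA-DMA.

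SLA-DQA1, the alpha chain of the DQ molecule, ran from 2.20 to 8.97 in the hypothalamus, with a median of 4.56. In the thyroid gland it ran from 9.0 to 10.90 (median 9.74), in backfat from 8.65 to 10.69 (median 9.54), in the adenohypophysis from 6.60 to 8.82 (median 8.09), in testes from 7.39 to 9.48 (median 8.61) and in ovaries from 6.83 to 9.64 (median 8.30). Of the hypothalamus arrays only IBM23, at 8.97, and IBM24, at 7.65, reached the range of another tissue. The hypothalamus differed by −4.38 (SE 0.27, adjusted p = 7.0e-25), and by −4.66 without the array of IBM23. The thyroid difference was 2.08 (SE 0.27, adjusted p = 2.2e-10). SLA-DQB1, the beta chain, differed by −3.78 in the hypothalamus (SE 0.23, adjusted p = 4.6e-25). SLA-DRA, the alpha chain of the DR molecule, differed by −3.25 there (SE 0.23, adjusted p = 2.5e-21) and by 1.88 in the thyroid gland (SE 0.23, adjusted p = 5.1e-11). CD74, the invariant chain, moved with them: it was 6.11 to 10.98 (median 8.09) in the hypothalamus and 10.09 to 12.73 (median 11.66) in backfat, a difference from the other classes of −2.53 (SE 0.25) and 1.39 (SE 0.25). The hypothalamus and backfat overlapped in CD74 through IBM23 and IBM24 alone.

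In the adenohypophysis 4 of 9 class II genes were lower and none was higher (29.3% of probesets were called lower and 26.6% higher). IFI30, the lysosomal thiol reductase that opens disulphide bonds of engulfed protein, was 4.73 to 5.73 (median 5.25) there, against 7.23 to 8.15 (median 7.79) in the thyroid gland and 7.44 to 9.55 (median 8.43) in backfat, with no overlap. It differed by −1.93 in the adenohypophysis (SE 0.17, adjusted p = 1.5e-16) and by −2.72 in the hypothalamus (SE 0.17). SLA-DQA1, SLA-DQB1, SLA-DRA and SLA-DRB1 were not called in the adenohypophysis, with differences between −0.37 and 0.02. SLA-DMB, the beta chain of the DM molecule, was the class II gene that was higher in the hypothalamus, by 0.48 (SE 0.16, adjusted p = 0.0056), and lower in the adenohypophysis, by a difference of −1.15 (SE 0.16).

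SLA-DMA, the alpha chain of DM, followed another order. Its signal was 11.85 to 13.19 (median 12.65) in testes and 9.21 to 12.08 (median 11.73) in ovaries, against 7.61 to 9.04 over all arrays of the other 4 tissues. The lowest ovary was that of IBF25, and the other 6 began at 11.36. The testis difference was 3.63 (SE 0.16, adjusted p = 2.9e-32) and that of ovaries 2.10 (SE 0.18, adjusted p = 8.0e-17), or 2.48 without the array of IBF25. The adenohypophysis had the lowest mean, with a difference of −1.66 (SE 0.12, adjusted p = 3.1e-21). A lower probeset of SLA-DMA was highest in the thyroid gland and in backfat, with means of 7.27 and 6.96 against 5.47 in testes, and its correlation with the one used was −0.03 over the 80 arrays. The gonadal signal thus rests on 1 probeset.

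Markers of other cells were followed beside these genes. Of 13 measured markers of macrophages, microglia and dendritic cells, 8 were higher and 3 lower in the hypothalamus (24.8% and 37.2% of all probesets), where class II was low. In backfat 12 of these markers were higher and none lower (42.5% and 32.6% of all probesets). The mean level of the 13 markers was 5.65 to 6.89 in hypothalamus arrays other than that of IBM23, which was at 7.54. It was 6.32 to 7.72 in backfat, 5.62 to 6.96 in the thyroid gland and 4.94 to 5.76 in the adenohypophysis. In the hypothalamus AIF1, a marker of microglia, was at a mean of 10.16, whereas CD163, of tissue macrophages, was at 3.54 against 8.98 in backfat. The mean level of 13 markers of T and B lymphocytes was 2.97 to 4.29 in the thyroid gland, 3.33 to 4.65 in backfat and 3.07 to 3.33 in the hypothalamus without the array of IBM23, which was at 4.45, and CD3D, CD3G, CD4 and CD8B had class means under 3 in every class. All 8 endothelial markers were higher in backfat (mean level 7.59 to 9.63) and in the thyroid gland 6 were higher and 1 lower (6.80 to 7.86), against 5.41 to 5.96 in the hypothalamus. Of all probesets, 42.5% were called higher in backfat, and 26.6% higher and 27.5% lower in the thyroid gland. Thyroid arrays also held signal of 5 backfat markers, with a median of their mean level of 5.76 and a highest value of 8.55 in DUM12, against medians of 3.16 to 3.29 in the other classes outside backfat. The part of these cells in the class I and class II differences was not tested.

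**Figure D2:**
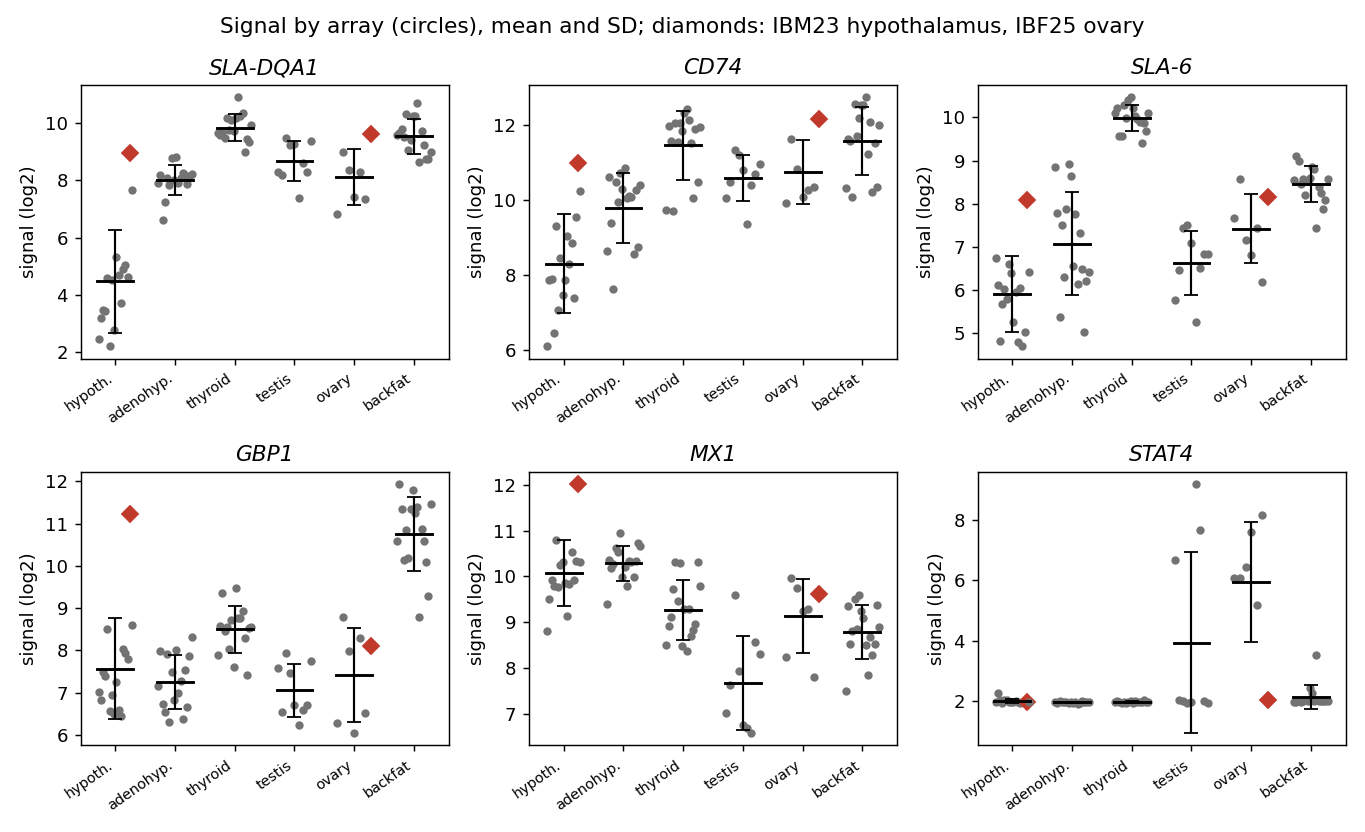
Log2 signal of 6 genes in each of the 80 arrays, by tissue class, with the mean (line) and SD (bar) of the class; diamonds mark the hypothalamus of IBM23 and the array labelled as the ovary of IBF25, both included in the means. SLA-DQA1 and CD74 are lowest in the hypothalamus, SLA-6 separates the thyroid gland and GBP1 is highest in backfat, while STAT4 is above 5 only in 3 testes and 6 ovaries.

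Most interferon-induced effectors were higher in backfat. There 10 of 14 were higher and 1 lower (42.5% and 32.6% of all probesets), with a median difference of 1.07. Backfat had the highest mean for 8 of the 14. In testes 1 was higher and 7 lower, with a median of −0.47 (all probesets −0.02; 24.9% of probesets were called higher and 24.1% lower). In the hypothalamus 3 were higher and 5 lower (24.8% and 37.2% of all probesets), and in the thyroid gland 2 and none (26.6% and 27.5%). In the adenohypophysis 2 were higher and 6 lower (26.6% and 29.3%), and in ovaries none and 2 (20.4% and 23.5%).

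GBP1, a guanylate-binding GTPase of the defence against intracellular microbes, was 8.79 to 11.94 (median 10.86) in backfat, 7.40 to 9.47 (median 8.55) in the thyroid gland and 6.24 to 7.93 (median 6.71) in testes. No testis overlapped with backfat. In backfat it was higher by 3.19 (SE 0.24, adjusted p = 1.6e-19), and its other 2 probesets followed it with correlations of 0.99 and 0.93 over the 80 arrays. OAS1, which makes the 2′-5′ oligoadenylates that activate RNase L, was 2.56 to 9.68 (median 9.32) in backfat and 2.43 to 6.74 (median 4.43) in the adenohypophysis. It was higher in backfat by 2.71 (SE 0.50, adjusted p = 1.8e-06) and lower in the adenohypophysis, by a difference of −1.95 (SE 0.50, adjusted p = 5.1e-04). Its wide range within each tissue came from single animals and is taken up below. IFIT1, which binds foreign RNA, was 7.66 to 9.52 (median 8.67) in backfat and 3.83 to 7.45 (median 4.58) in testes, with no overlap. The backfat difference was 2.46 (SE 0.22, adjusted p = 2.7e-16) and that of testes −1.73 (SE 0.30, adjusted p = 9.6e-07).

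The MX genes, whose proteins are dynamin-like GTPases that block viruses, differed from each other. MX1 was 9.40 to 10.96 (median 10.32) in the adenohypophysis, 8.82 to 12.01 (median 9.92) in the hypothalamus, 7.51 to 9.60 (median 8.83) in backfat and 6.59 to 9.59 (median 7.63) in testes. It was higher in the adenohypophysis, by 1.30 (SE 0.17), and in the hypothalamus, by 1.03 (SE 0.17), and lower in testes, by a difference of −1.94 (SE 0.22, adjusted p = 8.4e-12). MX2 was higher in backfat alone among the 6 classes, by 1.91 (SE 0.15, adjusted p = 4.1e-19). ISG15, a ubiquitin-like protein that is joined to other proteins, was higher in the hypothalamus, by 1.62 (SE 0.27), and in backfat, by 1.22 (SE 0.27). ISG20L2, which matched by its symbol and codes for a nucleolar nuclease of ribosome processing, was the effector that was higher in testes, by 0.45 (SE 0.12).

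Among the transcription factors IRF8 and STAT4 had the widest ranges of class means. IRF8, a factor of myeloid cells and microglia, was 6.12 to 8.20 (median 7.46) in the hypothalamus and 4.0 to 5.03 (median 4.39) in the adenohypophysis, with no overlap. It was higher in the hypothalamus by 2.21 (SE 0.16, adjusted p = 1.5e-20) and in ovaries by 0.97 (SE 0.25, adjusted p = 7.5e-04), or by 1.20 without the array of IBF25. STAT4, which carries the signal of interleukin-12 in lymphocytes, was 1.91 to 2.27 in every hypothalamus, adenohypophysis and thyroid array. In ovaries it was 5.18 in YLF21, 6.06 in LWF06, 6.08 in LWF05, 6.43 in DUF13, 7.61 in DUF14 and 8.17 in IBF22, and 2.02 in the array of IBF25. In testes it was 6.68 in LWM02, 7.66 in YLM20 and 9.19 in YLM19, and 1.94 to 2.04 in the other 6. The testes with the signal were also those with the lowest mean level of 6 testicular markers, at 9.61 in LWM02, 9.91 in YLM19 and 10.01 in YLM20 against 10.58 to 11.19, and the part of this in the result was not tested. The ovary difference of STAT4 was 3.56 (SE 0.49, adjusted p = 4.5e-09), or 4.20 without the array of IBF25. Its other probeset had means between 2.41 and 2.49 in all 6 classes.

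STAT5A, a mediator of prolactin and growth hormone, was higher in backfat, by 1.49 (SE 0.14), in testes, by 1.09 (SE 0.19), and in ovaries, by 0.76 (SE 0.21) or by 1.05 (SE 0.21) without the array of IBF25, whereas its neighbour STAT5B was higher in backfat, by 0.52 (SE 0.14), and in the hypothalamus, by 0.40 (SE 0.14). IRF3, which is activated by sensors of viral RNA and DNA, was 6.20 to 7.05 (median 6.70) in the hypothalamus and 7.61 to 9.13 (median 8.70) in the adenohypophysis, with no overlap, and differed by −1.44 (SE 0.11) and 0.83 (SE 0.11). IRF1, which drives class I genes after interferon gamma, was higher in the thyroid gland, by 1.12 (SE 0.16), and in backfat, by 1.00 (SE 0.16), and lower in testes, by a difference of −1.33 (SE 0.21). IRF2BP1, a partner of IRF2 that matched by its symbol, was higher in the adenohypophysis, by 0.77 (SE 0.09), and lower in backfat, by a difference of −0.57 (SE 0.09).

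Over all 45 genes, 39 were called in backfat (32 higher, 7 lower; 75.0% of probesets called), 28 in the thyroid gland (23 higher, 5 lower; 54.1%) and 34 in the hypothalamus (6 higher, 28 lower; 62.1%). The adenohypophysis had 30 (7 higher, 23 lower; 55.9%), testes 23 (5 higher, 18 lower; 49.1%) and ovaries 9 (5 higher, 4 lower; 43.9%). With each array centred on its median, 15 were called in ovaries (5 higher, 10 lower), beside 69% of probesets. Without the hypothalamus array of IBM23, 36 genes were called in the hypothalamus, of which 33 were among the 34. Without the array of IBF25, 11 were called in ovaries, with all 9 among them.

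Genes of the same pathways outside the rule were followed through lists. Of 23 further genes of antigen processing 14 were measured, and in the hypothalamus 2 were higher and 9 lower, in the thyroid gland 8 and 2, and in backfat 8 and 3. Of all probesets, 24.8% were called higher and 37.2% lower in the hypothalamus. The shares were 26.6% and 27.5% in the thyroid gland and 42.5% and 32.6% in backfat. PDIA3, a disulphide isomerase of the class I loading complex, was higher in the thyroid gland, by 1.37 (adjusted p = 1.2e-20), and lower in backfat, by a difference of −1.11 (adjusted p = 1.5e-16). CTSS, the cathepsin that trims the invariant chain, was higher in both, by 1.21 and 1.18. CIITA, the master activator of class II transcription, was higher in backfat, by 0.58 (adjusted p = 1.3e-07), and its class means were between 2.84 and 3.50. Of 54 genes of interferon signalling and response 28 were measured, with 20 higher and 2 lower in backfat and 4 higher and 12 lower in the hypothalamus. The count of 12 lower is near the share of all probesets called lower there, 37.2%. IFNGR1, a chain of the interferon gamma receptor, was higher in backfat, by 1.81 (adjusted p = 2.4e-31), and JAK1, the kinase shared by the interferon receptors, was lower in the hypothalamus, by a difference of −1.02 (adjusted p = 1.8e-32). RSAD2, the antiviral protein viperin, was higher in backfat, by 3.08 (adjusted p = 7.6e-18). The interferon gene IFNG had class means of 1.96 to 2.01, near background.

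The next comparison asked whether breeds differed, with sex as covariate. In the mean of the 5 tissues of each pig, limma called 0 of the 45 genes, beside 1.30% of all probesets, and 1 gene had an unadjusted p under 0.05 (19.1% of probesets). That gene was IFI35, with animal means of 6.18 to 6.87 in Iberian, 6.01 to 6.69 in Duroc, 5.76 to 6.17 in Large White and 5.30 to 5.86 in Youli pigs, and an adjusted p of 0.069. Within tissues limma called 0 genes in 5 of the 6 classes. In the hypothalamus 14 genes had an unadjusted p under 0.05, beside 11.5% of probesets (0.171% called), in the thyroid gland 10, beside 14.3% (0.575% called), and in the adenohypophysis 4, beside 16.3% (0.300% called). In testes there were 12, beside 14% (0% called), and in ovaries 2, beside 7.15% (0.00417% called). In backfat 1 gene was called, beside 0.817% of probesets, and 10 had an unadjusted p under 0.05, beside 21.1%. Of the 14 genes in the hypothalamus 6 were class II genes. Iberian pigs differed widely in class II there: SLA-DRA ran from 6.93 to 10.88, with IBM23 (10.88) and IBM24 (8.98) highest.

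The gene in backfat was ISG12(A), of the family of small mitochondrial proteins induced by interferon alpha. It was 8.72 to 9.62 in the 4 Youli pigs, 10.08 to 10.59 in Large White, 10.47 to 11.48 in Duroc and 10.10 to 10.79 in Iberian pigs. All Youli values lay below all others, with a mean of 9.25 ± 0.44 against 10.37 ± 0.22, 10.94 ± 0.45 and 10.53 ± 0.31 (SD, n = 4), and the adjusted p of the limma fit was 0.044. It was 0.086 with a covariate for the set of arrays that stood apart and 0.22 without the 4 animals of that set, and it was above 0.05 in 14 of the 16 fits that left out 1 animal. In the thyroid gland SLA-DQB1 was 10.80 to 11.30 in Youli pigs, above all others (9.53 to 10.72), with an adjusted p of 0.090 in the limma fit.

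Between males and females, with breed as covariate, limma called 0 of the 45 genes in each of the 4 tissues other than gonads. An unadjusted p under 0.05 was found for 2 genes in the hypothalamus (1.72% of probesets, 0.0667% called), 1 in the thyroid gland (3.80%, 0.0792% called), 1 in backfat (2.24%, 0.050% called) and none in the adenohypophysis (7.40%, 0.500% called). Between testes and ovaries 7 were called, 2 higher and 5 lower in testes (28.3% of probesets; 15.0% higher and 13.2% lower). IRF1 was 4.82 to 6.91 (median 6.19) in testes and 6.73 to 9.31 (median 7.34) in ovaries, with a difference of −1.37 (SE 0.33, adjusted p = 0.0076 in limma) and of −1.15 without the array of IBF25, which held the highest value. IRF3 was 6.69 to 7.61 (median 7.23) in testes and 7.51 to 9.65 (median 8.32) in ovaries, a difference of −1.30 (SE 0.30, adjusted p = 0.0065 in limma). Without the array of IBF25 the ovaries ended at 9.15, and the difference was −1.10 (adjusted p = 0.0079 in limma). The ranges of IRF1 and IRF3 overlapped only at their edges.

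MX1 was lower in testes by a difference of −1.26 (SE 0.41, adjusted p = 0.038), which was −1.18 with an adjusted p of 0.066 without the array of IBF25. TAPBP, at −0.80 (SE 0.24, adjusted p = 0.023), and STAT3, the factor downstream of interleukin-6 and leptin, at −0.42 (SE 0.12, adjusted p = 0.018), were lower in testes too. SLA-DMA was higher in testes, by 1.27 (SE 0.38, adjusted p = 0.026) or by 0.88 without the array of IBF25, and ISG20L2 by 0.61 (SE 0.16, adjusted p = 0.013). Without that array the differences were −0.72 for TAPBP (adjusted p = 0.045), −0.41 for STAT3 (0.030) and 0.65 for ISG20L2 (0.014). For the mean over both SLA-DMA probesets the difference was 0.61 and was not called (adjusted p = 0.081). Without YLF21, the only Youli ovary, the adjusted p was 0.15 for MX1, 0.075 for TAPBP and 0.075 for STAT3, and for SLA-DMA it was 0.053 without IBM23 and 0.057 without IBM24. TAPBP was also above the threshold without LWM02 (0.052) and without LWM04 or LWF06 (0.050 each), and MX1 without any 1 of 9 other animals (0.055 to 0.081). The sex difference in gonads was also set against that in the average of the 4 other tissues. It differed for 8 genes (25.3% of probesets): these 7 and IRF9, at −0.65 (SE 0.19, adjusted p = 0.022). Without animal IBF25 these 8 were called as well, with IRF9 at −0.52 (adjusted p = 0.030), SLA-DMA at 0.97 and IRF1 at −1.07.

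Pigs of the same breed and sex differed in 16 of the 45 genes over their 5 tissues (14.8% of all probesets), and 29 had an unadjusted p under 0.05 (25.9%). These were 7 of the 14 effectors, 2 of 9 class I genes, 2 of 9 class II genes and 5 of 13 transcription factors. The smallest adjusted p was that of OAS1, 1.1e-15. It was near background in every tissue of the Duroc female DUF14, at 2.56 in backfat, 2.38 in the ovary, 2.37 in the thyroid gland, 2.45 in the adenohypophysis and 2.56 in the hypothalamus. The Large White male LWM02 was at 3.58, 2.39 (testis), 2.41, 2.44 and 2.39 in the same order. In the other 14 pigs OAS1 was 7.38 to 9.68 in backfat (median 9.38), 4.09 to 8.27 in the thyroid gland (median 6.72) and 3.70 to 8.97 in the hypothalamus (median 6.46), so that DUF14 and LWM02 were below all others there. In the adenohypophysis DUM15 was as low, at 2.43. OAS1 of DUM15 and YLM18 lay between those of DUF14 and LWM02 and those of most pigs in several tissues, with 3.70 and 3.84 in the hypothalamus. The other 13 effectors of DUF14 did not share this: their median deviation from the class mean was −0.30 to 0.01 over its 5 tissues.

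**Figure D3:**
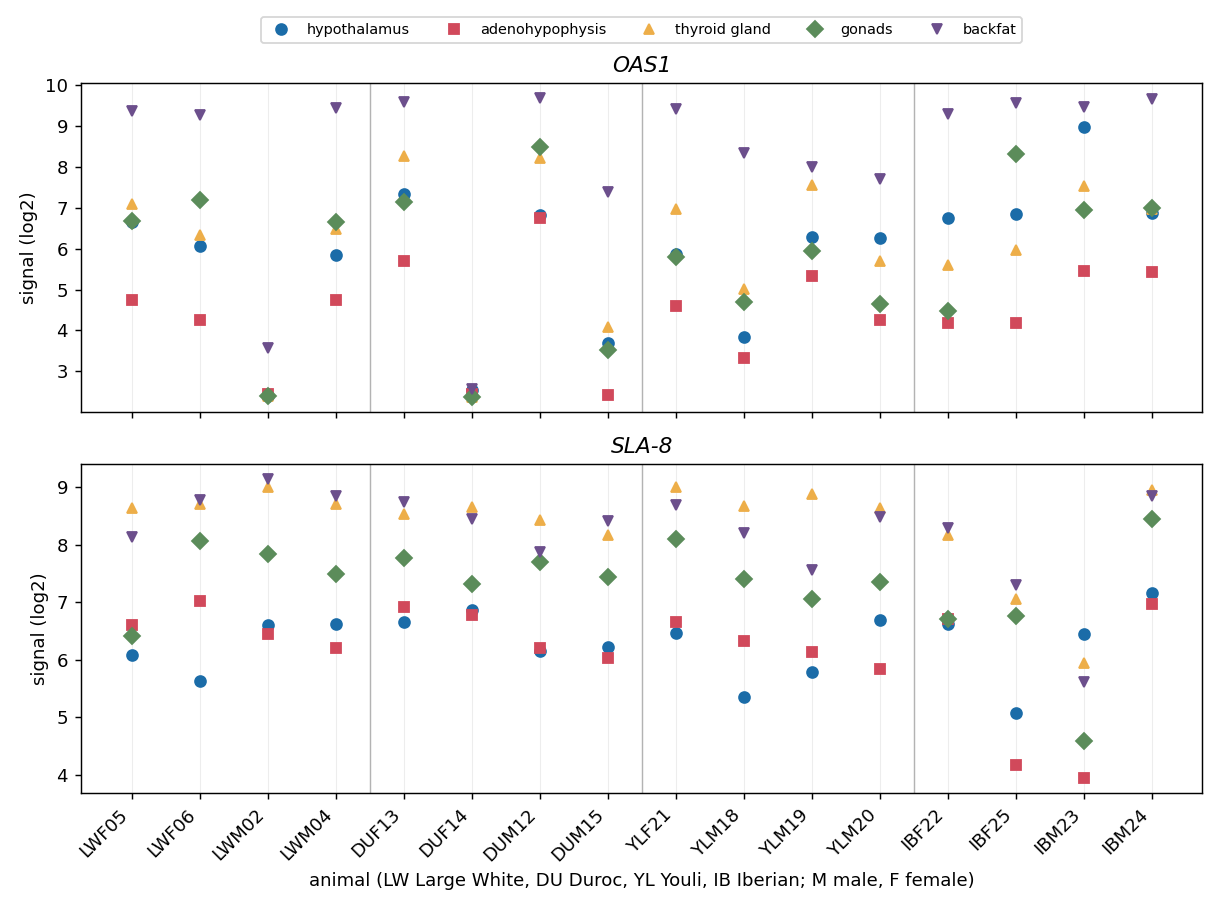
Log2 signal of OAS1 (top) and SLA-8 (bottom) in the 5 tissues of each of the 16 pigs, with vertical lines between breeds. OAS1 is between 2.37 and 2.56 in all tissues of DUF14 and between 2.39 and 3.58 in those of LWM02, and SLA-8 is lowest in IBM23 and IBF25 in the adenohypophysis, the thyroid gland and backfat.

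SLA-8, a non-classical class I gene, had an adjusted p of 2.9e-08 between animals. It was 3.94 in the adenohypophysis of IBM23 and 4.17 in that of IBF25, against 5.85 to 7.01 in the other 14 pigs. In the thyroid gland these 2 were at 5.94 and 7.05 against 8.17 to 9.01, and in backfat at 5.61 and 7.30 against 7.56 to 9.14. Both were thus below all other pigs in 3 tissues. In the hypothalamus IBF25 was lowest, at 5.07, and IBM23, at 6.45, lay near the median of the other 14 pigs, 6.53, while among gonads the testis of IBM23 was lowest, at 4.59. The 2 probesets of SLA-8 had a correlation of 0.96 over the 80 arrays, and the second one had an adjusted p of 2.1e-10. The call was lost without IBM24 (adjusted p = 0.11), but IBM23 then had no other Iberian male to be compared with. It was also lost without the 4 animals with arrays that stood apart, IBM23 among them (0.90), where no Iberian pigs were compared. Neither fit could test the low signal of IBM23.

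Several effectors deviated together in the same pigs. In DUF13, 9 of the 14 effectors were above their class mean in all 5 tissues, in DUM12 and IBM24 8 each and in IBM23 7, whereas no other pig had more than 2. Of all 45 genes, 25 were above it in all 5 tissues in DUF13 (5.16% of all probesets), 16 in DUM12 (4.99%), 14 in IBM24 (5.53%) and 11 each in IBM23 (7.86%) and YLF21 (7.1%). Below it in all 5 tissues were 18 genes in LWM04 (9.73%), 14 in IBF22 (7.66%), 13 in LWF05 (11.3%) and 12 in DUF14 (5.14%). ISG15 was 1.23 above the class mean in DUF13, 1.62 in DUM12 and 1.52 in IBM23 on average over the 5 tissues, and deviated by −1.50 in YLM18 and by −1.36 in IBF22. In backfat this meant 9.12, 9.35 and 8.63 in DUF13, DUM12 and IBM23, against 7.76 in YLM18 and 6.73 in IBF22. Its adjusted p between animals was 9.6e-05. ISG12(A) deviated by 1.22, 1.08 and 1.33 in DUF13, DUM12 and IBM23 and by −1.19 in YLM18 (adjusted p = 5.9e-04), and MX1 by 0.69, 0.92 and 0.98 and by −0.70 in YLM18 (adjusted p = 2.5e-04). The call of ISG12(A) was lost without DUM12 (adjusted p = 0.051), but the other Duroc male then had no partner in this test. The averages of IBM23 include its hypothalamus array, where the median deviation of its effectors was 2.34, against 0.19 to 0.70 in its other tissues.

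IRF7, the factor that amplifies type I interferon, deviated by 0.94 in DUF13 and 0.38 in DUM12 (adjusted p = 6.6e-04), but by 0.05 in IBM23 and −0.24 in IBM24. IRF7 also deviated by 0.41 in YLM19 and by 0.33 in IBF25. The average of IBF25 includes the array labelled as its ovary, where IRF7 was 5.01 against 3.47 to 4.66 in the other ovaries. Without DUF13 or DUF14 the adjusted p of IRF7 was 0.056 and 0.055, but this test then compared no Duroc females. Of the 28 measured genes of interferon signalling outside the rule, 7 differed between animals, beside 14.8% of all probesets. Among them were EIF2AK2, the RNA-activated kinase PKR (adjusted p = 4.0e-05), USP18, which removes ISG15 from proteins (6.7e-05), and XAF1 (1.5e-04). The mean of the macrophage markers deviated by 0.21 in DUF13, 0.29 in DUM12, 0.34 in IBM23 and 0.07 in IBM24, and that of lymphocyte markers by −0.11, 0.04, 0.40 and −0.08. YLF21, with 0.45 and 0.30, had 2 effectors above the class mean in all tissues. The part of these cells in the result was not tested.

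**Figure D4:**
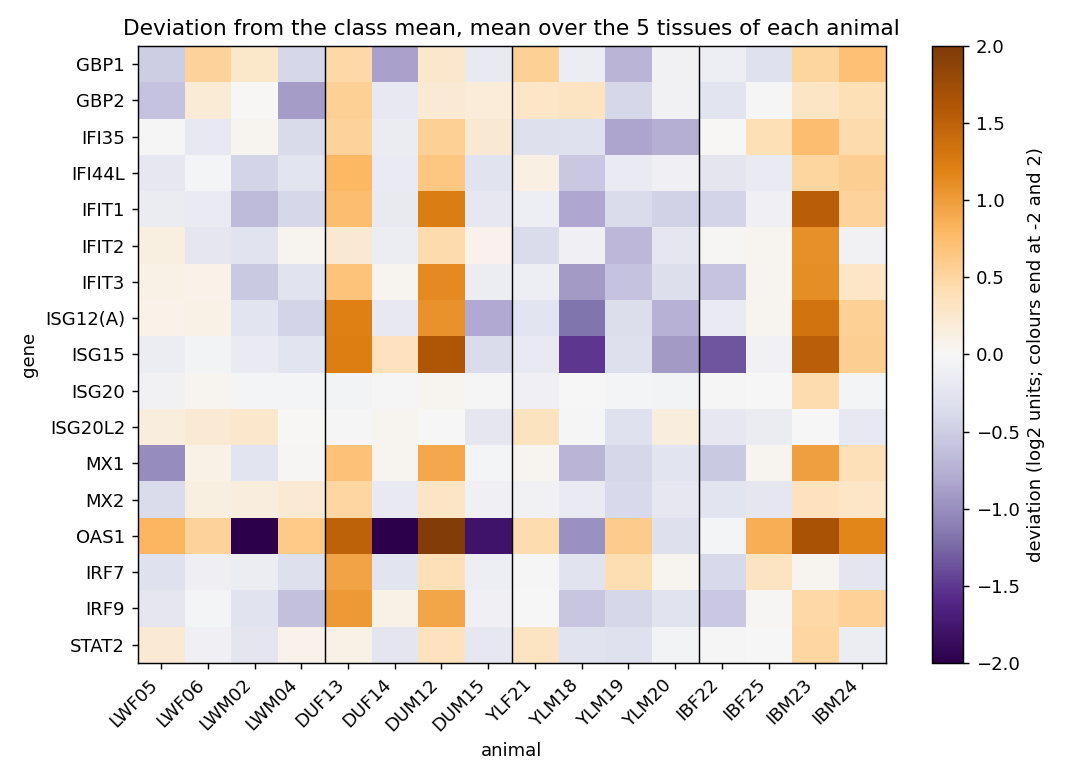
Deviation of the log2 signal from the class mean, averaged over the 5 tissues of each pig, for the 14 effectors and for IRF7, IRF9 and STAT2. Orange is above and purple below the class mean; DUF13, DUM12, IBM23 and IBM24 are orange in most effectors, and OAS1 of DUF14 (−3.64) and LWM02 (−3.38) lies beyond the scale.

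The calls of CD74 and SLA-2 between animals were lost without the 4 animals with arrays that stood apart. Without them no Large White or Iberian pig had another of its breed and sex left. The test then compared only Duroc pigs of each sex and Youli males, so that it cannot show whether these calls depend on the set of arrays. Averaged over the 5 tissues, CD74 deviated by −1.43 in LWF05, −1.46 in LWM04 and −1.07 in IBF22. In IBM23, whose hypothalamus had the highest CD74 (10.98), it deviated by −0.09. SLA-2 deviated by −0.84, −0.68, −0.50 and −0.14 in the same order, and by −0.20 in YLM19, outside the set. CD74 in backfat was 10.09 to 10.35 in LWF05, LWM04, IBF22 and IBM23, and 11.21 to 12.73 in the other 12 pigs. In the thyroid gland these 4 were at 9.72 to 10.48 against 11.50 to 12.43, so that they were lowest in both tissues without overlap. The adjusted p was 1.4e-04 for CD74 and 1.9e-04 for SLA-2, and without the 4 animals 0.36 and 0.17. Without them 7 genes were called between animals (1.36% of all probesets), all among the 16: OAS1 (adjusted p = 9.1e-12), ISG12(A) (0.0012), IFI44L (0.0035), ISG15 (0.0047), IRF7 (0.0065), IRF9 (0.017) and IFIT1 (0.028). MX1 was at 0.081. Without the hypothalamus array of IBM23 alone 21 genes were called (14.4%), with 15 of the 16 among them.

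The hypothalamus array of the Iberian male IBM23 had the highest signal of the 16 hypothalami in 32 of the 45 genes (71.1%), beside 7.18% of all probesets. No other hypothalamus array was highest in more than 3 of the genes, and IBM23 was highest in 1 or 2 in each of its other tissues. These 32 were 13 of 14 effectors, 6 of 9 class I genes, 8 of 9 class II genes and 5 of 13 transcription factors. In 21 of the genes it was more than 1 above the next array, against 160 of all 23999 probesets. The median difference from the median of the other 15 was 1.93 for the 45 genes and −0.01 for all probesets. With 1 array there is no test of this difference, and the genes were counted after their values were seen.

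Class II and effector genes had the widest gaps to the median of the other arrays, with medians of 3.13 and 2.47. SLA-DRA was at 10.88, against 4.52 to 8.98 (median 6.63) in the other 15 hypothalami. GBP1 was at 11.23 against 6.45 to 8.61 (median 7.25), and IFIT2, another RNA-binding effector, at 8.38 against 4.56 to 5.72 (median 5.33). IBM23 was above the whole range in each of these. IBM24, the other Iberian male, was next in SLA-DRA, SLA-DQA1 (7.65), SLA-DQB1 (7.83), SLA-DRB1 (8.46) and CD74 (10.24). The median deviation of the class II genes from the hypothalamus mean was 3.17 in IBM23 and 1.94 in IBM24. In the other pigs it was at most 0.39, so that high class II was not particular to IBM23. TAP1 was at 9.64 against 5.08 to 7.06, PSMB8 at 8.36 against 4.60 to 6.52, SLA-3 at 11.71 against 8.08 to 9.30 and IRF1 at 8.86 against 6.10 to 7.38. ISG20, an RNA exonuclease that was near background elsewhere, was at 4.51 against 2.32 to 2.48. IRF3, STAT5B and IRF2BP1 were below the median of the other arrays, at 6.20, 6.47 and 4.71 against 6.75, 6.92 and 5.42.

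**Figure D5:**
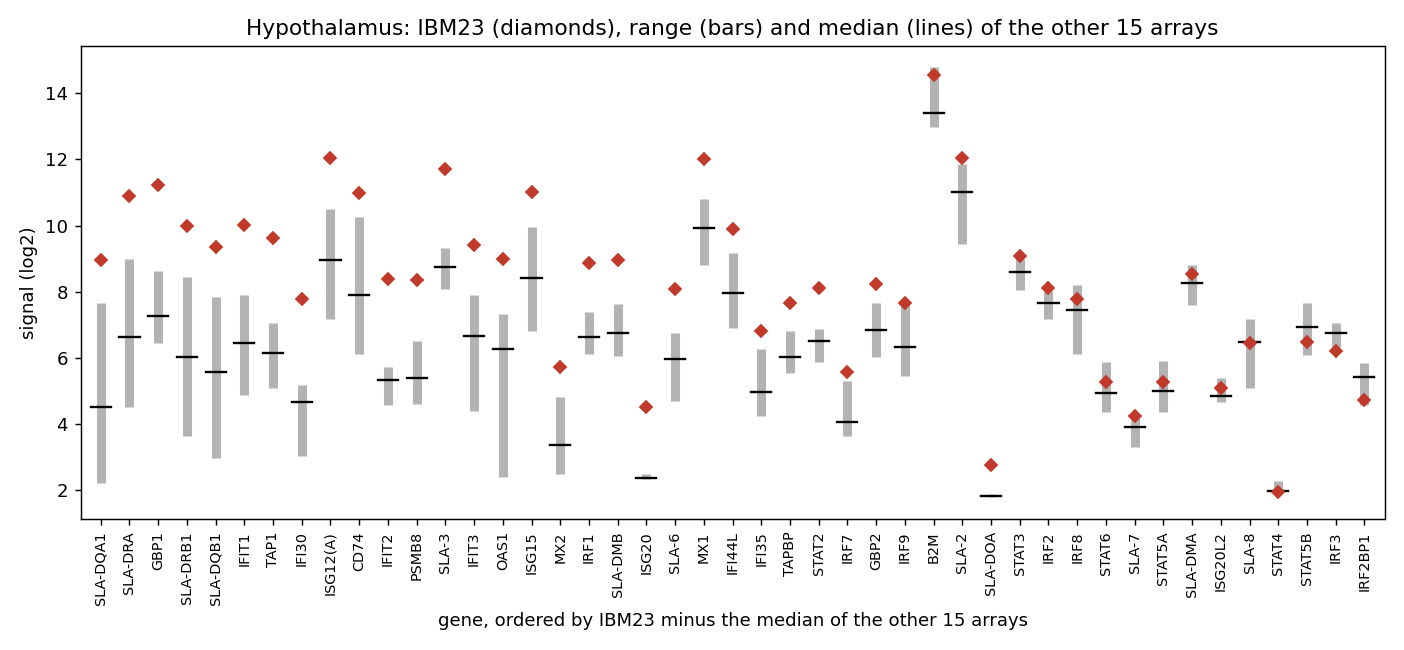
Log2 signal of the 45 genes in the hypothalamus of IBM23 (diamonds), with the range (bars) and median (lines) of the other 15 hypothalamus arrays, ordered by the difference from that median. IBM23 lies above the bar in 32 of the 45 genes.

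Outside the rule, CXCL9, a chemokine induced by interferon gamma, was at 10.68 in this array against a highest value of 6.25 in the others, and RSAD2 at 9.23 against 6.73. IFNG was at 1.96, near background. Markers of leukocytes moved as well: 8 of 13 lymphocyte markers were highest in this array (mean level 4.45 against 3.07 to 3.33) and 9 of 13 macrophage markers (7.54 against 5.65 to 6.89). Of all probesets, 7.18% were highest in it. CD2, of T and NK cells, was at 8.04 against a highest value of 4.69, CD8A at 4.66 against 2.69, and JCHAIN, of antibody-secreting cells, at 9.78 against 6.49, whereas CD3G, CD4 and CD8B were near background. The 8 hypothalamic markers were at a mean of 10.49, within the 9.48 to 12.38 of the other arrays. The part of these cells in the result was not tested.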

How the data were processed

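RNA of 80 tissue samples was hybridised to Affymetrix porcine arrays. Scanning was done with GCOS, and the authors applied GCRMA to the 80 arrays jointly. The log2 signals they deposited were used as given. Of 24123 probesets, 124 controls were left out. Symbols came from the platform annotation: 10069 probesets had 1 symbol, 198 several and 13732 none, and 1 probeset with several symbols that met the rule was left out. Of the 45 genes 28 had 1 probeset and 17 had 2 or more.

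Tests used limma 3.58.1 in R 4.3.3 with lmFit and eBayes over all 23999 probesets and Benjamini-Hochberg adjustment, with calls at 0.05: tissue over 80 arrays without an animal term, breed with sex and sex with breed as covariate within each tissue and in animal means, the sex difference in gonads minus that in the other tissues, and animals within breed and sex over tissues. Each pig gave 1 sample per tissue. P-values are two-sided. The fits were tested on simulated data.

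Arrays were assigned by title. For 11 of 16 thyroid arrays the title and the other fields conflicted, but all 16 were nearest to the animal of their title over 200 probesets. Arrays of 1 pig share the animal, and deviations from class means had a mean correlation of 0.22 within animals and −0.01 between animals; the consensus correlation was 0.0758.

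The genes, the lists and the tests were chosen with earlier results of these data known. Named in full were the 3 largest differences of each class, genes called between breeds or sexes, and the 8 smallest p-values between animals; others were picked from the groups by role or after their values were seen. Alternatives were a filter on dim probesets (mean under log2 4), median centring, the mean over the probesets of a gene, the thyroid fields, an animal block, gonads left out of the animal test, and each animal left out. Added after seeing the data were a covariate for the 16 arrays that stood apart, and fits without their 4 animals, without the hypothalamus array of IBM23 and without the array of IBF25. Absolute levels are not compared between probesets, and the number of arrays limits the precision.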

Additional observations from a re-analysis of the deposited data

Results flagged for a closer look

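In 117 groups of 4 to 9 values, the highest and the lowest were tested by Dixon's ratio for a gap to the others, which chance alone passes in about 1 of 20 groups. Among the 45 genes in the 4 Iberian hypothalami 9 passed, all through IBM23, and among the other 72 groups 3 passed. These 45 groups share 1 array that was known to stand apart, so that their count is a description and not a test. The values of IBM23 were IFI30 at 7.78, IFIT2 at 8.38, IFIT3 at 9.41, IRF2 at 8.11, ISG12(A) at 12.04, ISG20 at 4.51, OAS1 at 8.97, PSMB8 at 8.36 and SLA-DOA at 2.74. In the other 3 Iberian hypothalami the nearest values lay between 1.85 for SLA-DOA and 9.51 for ISG12(A). IRF1 in the testis of YLM19 was at 4.82, against 5.90 to 6.91 in the other 8. SLA-DMA in the array labelled as the ovary of IBF25 was at 9.21, against 11.36 to 12.08. The animal mean of OAS1 in LWM02 was 2.64, against 6.62 to 6.90 in the other 3 Large White pigs. The sex difference in gonads minus that in the other tissues passed the limma test for MX1 (−1.54), SLA-DMA (1.34), IRF1 (−1.32), IRF3 (−1.29), ISG20L2 (0.73), TAPBP (−0.71), IRF9 (−0.65) and STAT3 (−0.42).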

How the results depend on the processing

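Of 139 counts recomputed under the alternatives other than leaving out an animal, 134 stayed within 1.5 times the value given and 5 did not. Median centring, which removes class medians of 4.73 in backfat, 4.99 in ovaries and 4.86 to 4.88 elsewhere, gave 15 genes called in ovaries (5 higher, 10 lower) and an adjusted p of 0.050 for STAT3 between the sexes. In backfat 0 genes differed between breeds with the covariate for the arrays that stood apart and 0 without their 4 animals. Between animals 7 did without them, where only Duroc pigs and Youli males were compared. The filter on dim probesets gave 1 gene between breeds in animal means. With a replicate block for the animal (a random effect), tissue counts were 34, 30, 30, 23, 12 and 39 from hypothalamus to backfat, and no named call changed. Leaving out each animal gave 0 to 3 genes between breeds in the thyroid gland (3 without IBM24), 0 to 2 in backfat, and 4 (without YLF21) to 10 (without IBF22) between testes and ovaries. Without the 4 animals 8 of the named calls were lost, among them SLA-DMA between the sexes (adjusted p = 0.081 in limma). With the mean over the probesets of a gene 2 named calls were lost. No named difference turned its direction. The breed fit of ovaries without YLF21, the only Youli female, could not be run as for the other 15, and the covariate was not used in fits of gonads alone or in the animal test.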
